A study of Homo sapiens with 6 samples.

Results

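The small leucine-rich proteoglycans are a family of secreted matrix proteins, and 10 of its genes were followed here in SH-SY5Y cells, a human neuroblastoma line with features of sympathetic neuron precursors. The genes were taken by name (DCN, LUM, BGN, PRELP, FMOD, OGN, ASPN, PODN, OMD and KERA), and 6 of them were among the 20668 genes of the deposited gene table; all 6 were also among the 16403 genes with enough counts to be tested. The other 4 (FMOD, OGN, OMD and KERA) were read from the transcript files. The samples were 3 RNA-seq libraries of wild-type (WT) cells and 3 of cells in which DNAJC12, a co-chaperone gene, had been knocked out (KO) with CRISPR/Cas9. Neither group had received a treatment. Libraries were made with a stranded kit after removal of ribosomal RNA. The labels do not say whether the KO cells were 1 clone or whether the 3 replicates were separate cultures, so the p-values below reflect only differences among the 6 libraries, and those may be technical. The study's stated interest was cell invasion.

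Each protein of this family has a core of leucine-rich repeats that folds into a curved solenoid, and most carry chondroitin, dermatan or keratan sulfate chains. They bind collagen fibrils and set their diameter and spacing, and several of them also bind growth factors such as TGF-beta or cell surface receptors. Connective tissue cells such as fibroblasts are their best-known source. DCN (decorin), BGN (biglycan) and ASPN (asporin) form class I. LUM (lumican), FMOD (fibromodulin), PRELP, OMD (osteomodulin) and KERA (keratocan) form class II, OGN (osteoglycin) belongs to class III and PODN (podocan) to class V.

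The members are related by sequence but can be told apart by short reads. Over the coding sequence, DCN and BGN were 58.7% identical across 1074 aligned bases, DCN and ASPN 56.1%, and DCN and LUM 46.4%. The longest identical run between DCN and BGN in that alignment was 18 bases. No stretch of 31 bases was shared between the annotated transcripts of any pair of the 10 genes. The most alike part of the 3 class I genes is shown because DCN differed between the genotypes while the ranges of BGN and ASPN overlapped. It is a window of 90 coding bases that crosses from exon 2 to exon 3 of each transcript, with 4 cysteine codons in frame in each gene. Capitals mark the 49 bases identical in all 3 (GENCODE release 29 transcripts, GRCh38, each read 5′ to 3′ on the strand of its gene).
DCN (DCN-202, minus strand, chr12:91164682-91178395): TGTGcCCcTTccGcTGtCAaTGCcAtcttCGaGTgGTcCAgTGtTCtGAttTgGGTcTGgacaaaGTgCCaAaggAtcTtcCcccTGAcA
BGN (BGN-201, plus strand, chrX:153504816-153505273): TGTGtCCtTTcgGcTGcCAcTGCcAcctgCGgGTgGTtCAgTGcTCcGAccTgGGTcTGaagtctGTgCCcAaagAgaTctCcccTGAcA
ASPN (ASPN-202, minus strand, chr9:92470746-92474677): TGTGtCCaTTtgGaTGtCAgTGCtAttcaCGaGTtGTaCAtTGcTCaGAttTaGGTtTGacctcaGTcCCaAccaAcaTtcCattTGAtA

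The libraries held 19321842 to 21869659 counts, so that 3 counts, the upper limit for a gene with none, were 0.137 to 0.155 CPM (counts scaled to a fixed library total). Intervals and this limit cover counting error only. DNAJC12 itself had 476, 421 and 392 counts in WT against 116, 122 and 104 in KO, lower in every KO library. Levels are given as CPM after TMM scaling for comparisons between libraries, and as TPM (a share of all transcripts that corrects for length) for comparisons between genes. Fold changes are log2 values for KO against WT ± SE from edgeR's quasi-likelihood fit over all 16403 genes with n = 3 per group. That fit called 26.0% of genes at a Benjamini-Hochberg adjusted p under 0.05, 14.5% higher and 11.5% lower in KO. The family was chosen on the WT and KO counts of these same libraries, so the values of its members are a description. No p is given for a member, and where the fit's call is named nothing rests on it.

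Decorin and lumican made up nearly all of the family's RNA in both genotypes. DCN and LUM together held 98.6% to 99.0% of the counts of the 6 genes in the WT libraries and 94.5% to 95.3% in the KO libraries. By length-corrected level in WT the order was DCN at 182 ± 25.8 TPM, LUM at 99.1 ± 2.31, ASPN at 0.505 ± 0.0699, PODN at 0.494 ± 0.398, BGN at 0.382 ± 0.0818 and PRELP at 0.264 ± 0.0439 TPM (SD, n = 3). The WT ranges of DCN and LUM did not overlap, at 154 to 204 and 96.8 to 101 TPM. From ASPN to PRELP each gene's range overlapped that of the next in the order. In KO the order at the top was reversed, with LUM at 41.7 ± 2.10 TPM and DCN at 23.1 ± 1.36 TPM, again without overlap. PODN (0.82 ± 0.145 TPM), BGN (0.687 ± 0.453 TPM) and ASPN (0.416 ± 0.231 TPM) followed. The range of BGN overlapped those of PODN and ASPN, which did not overlap each other. By mean TPM, DCN ranked 691st of 23191 genes with reads in WT and 5145th of 23982 in KO.

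**Figure D1:**
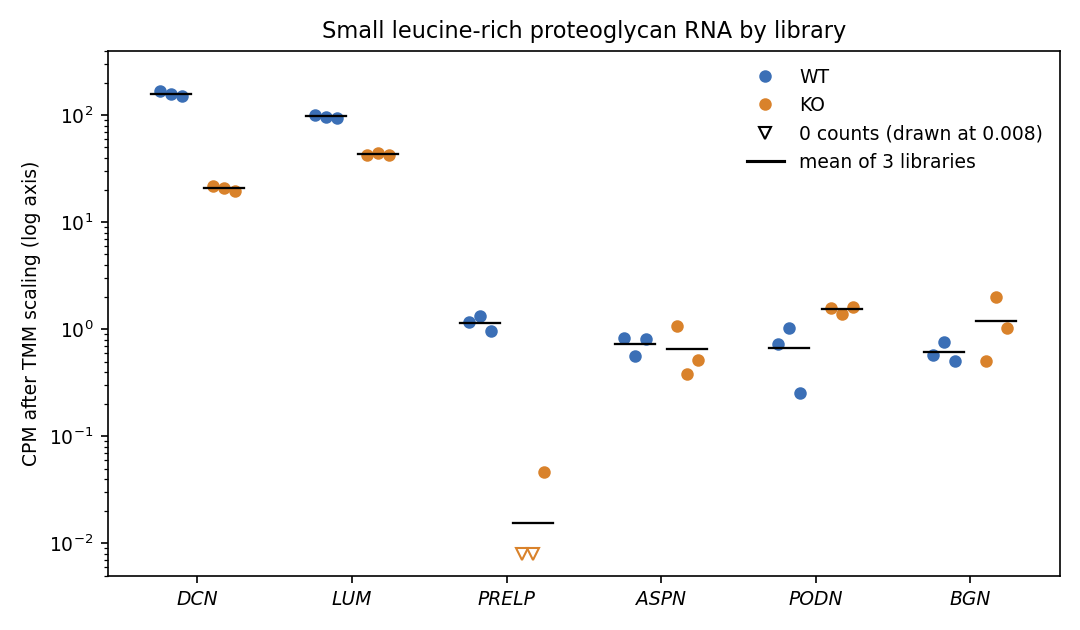
CPM after TMM scaling (log axis) of the 6 members with a row in the gene table, in each of 3 WT (blue) and 3 KO (orange) libraries, with the mean of each group as a bar and libraries without a count as open triangles at a fixed height. DCN and LUM lie at 94.2 to 167 CPM in WT and at 19.4 to 44.1 CPM in KO, and the other 4 genes stay at or below 2.02 CPM in every library.

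DCN, which codes for decorin, a collagen-binding proteoglycan with a single chondroitin or dermatan sulfate chain that also binds TGF-beta and receptor tyrosine kinases, had 3456, 3102 and 2966 counts in WT against 430, 432 and 417 in KO. All 3 KO libraries lay far below all 3 WT libraries, with little spread inside either group. The mean level was 159 ± 7.93 CPM in WT and 20.7 ± 1.23 CPM in KO (SD, n = 3), and the fitted change was -2.94 ± 0.08, which leaves 0.130 of the WT level. Of the 16403 genes, 52 had a lower fitted change. In bulk RNA, fewer cells with the transcript and less transcript per cell cannot be told apart. The gene (ENSG00000011465) spans chr12:91140484-91182817 in GRCh38.p14.

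LUM, which codes for lumican, a keratan sulfate proteoglycan of collagen fibrils, had 2083, 1914 and 1843 counts in WT and 840, 915 and 917 in KO. Its groups did not overlap either. The mean went from 97.4 ± 3.32 to 43.2 ± 0.745 CPM (SD, n = 3), a fitted change of -1.17 ± 0.07. LUM (ENSG00000139329) lies beside DCN at chr12:91102629-91111494. The ratio of LUM to DCN counts was 0.603, 0.617 and 0.621 in WT against 1.95, 2.12 and 2.20 in KO, so that every library of a genotype gave nearly the same ratio. With TPM in place of counts it was 0.552 ± 0.0800 in WT and 1.81 ± 0.185 in KO (SD, n = 3).

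PRELP, a proteoglycan gene whose product links basement membranes to the underlying collagen, had 24, 26 and 19 counts in WT and 0, 0 and 1 in KO. It was low in WT and close to nothing in KO, and the single KO count came from replicate 3. The ratio of pooled WT to KO counts, scaled by library totals without TMM, was 74.1, with an exact 95% counting interval of 12.9 to 2970. The fitted change was -5.70 ± 0.72 and became -7.54 without KO replicate 3, so its size is not fixed by these counts. PRELP lies at chr1:203475806-203491352 (ENSG00000188783) and 6.03% of the 31-base stretches in its transcript also occur in transcripts of other genes. It passed the filter on low counts through the WT libraries alone, where it is high.

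The 3 other measured members were low in both genotypes, with 5 to 42 counts in each library. PODN, a podocan gene of the vessel wall and other collagen-rich tissue, had 15, 20 and 5 counts in WT and 31, 29 and 35 in KO. Its KO libraries all lay above its WT libraries (0.666 ± 0.383 against 1.54 ± 0.124 CPM, SD, n = 3), with a fitted value of 1.20 ± 0.45 that was not called. By limma-voom it was called (1.36). The separation held for CPM but not for TPM, where the PODN ranges overlapped (0.142 to 0.926 in WT and 0.724 to 0.987 in KO). With length-corrected counts the fitted value was 0.80 ± 0.59, not called. BGN, which codes for biglycan, a class I proteoglycan with a pair of chondroitin or dermatan sulfate chains, had 12, 15 and 10 counts in WT and 10, 42 and 22 in KO. Its groups overlapped, and its fitted value of 0.94 ± 0.51 became 0.32 without KO replicate 2, the library with the most BGN counts. ASPN, which codes for asporin, a class I protein that binds collagen and TGF-beta, had 17, 11 and 16 counts in WT and 21, 8 and 11 in KO. These ranges overlapped too, at -0.17 ± 0.47, and the sign turned without KO replicate 2 (0.10).

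FMOD, OGN, OMD and KERA were at or near 0 in all libraries. FMOD had 1, 1 and 1 estimated reads in WT against 0, 0 and 1 in KO, and OGN had a single read, in KO replicate 2. OMD had no read in WT and 2, 1 and 1 in KO. KERA had no read in any of the 6 libraries. At this depth such values give no direction.

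Of the 6 tested members 3 were called lower (DCN, LUM and PRELP) and none higher, beside 11.5% of all genes called lower and 14.5% higher. In CPM the groups did not overlap for 4 of the 6 (the same 3 and PODN, whose ranges overlapped in TPM), beside 41.7% of all genes. PRELP and, in part, PODN entered the test through the group in which they are high.

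The transcript files show how the DCN and LUM signal was spread over annotated transcripts. Of 20 annotated DCN transcripts 12 had reads. DCN-220, a coding transcript that starts at an upstream first exon, held 40.9% ± 4.56 of the gene's estimated reads in WT and 37.0% ± 0.954 in KO (SD, n = 3). DCN-202, a coding transcript from a downstream first exon, held 36.4% ± 1.41 in WT and 39.5% ± 4.44 in KO. These 2 shares differed between the genotypes by no more than the spread within one of them.

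Each of the main DCN transcripts was lower in every KO library. DCN-220 had 50.4, 46.0 and 52.4 TPM in WT and 5.92, 5.52 and 5.41 TPM in KO. DCN-202 had 41.2, 40.4 and 34.6 TPM in WT and 5.45, 5.92 and 4.39 TPM in KO. The KO level was 0.113 of WT for the first and 0.136 for the second, and 0.128 for the short DCN-216 and 0.166 for DCN-210, so that the 4 main transcripts were lower alike. Minor transcripts rest on few reads. DCN-211 had reads in 1 library of each genotype (2.49 in WT replicate 2 and 6.31 in KO replicate 2), and DCN-203 and DCN-219 had reads in WT alone. Transcripts whose 5′ end lies upstream of the start of DCN-202 took 47.8%, 47.3% and 54.9% of DCN reads in WT and 46.2%, 45.9% and 49.6% in KO, with overlapping ranges. DCN-216 carried 11.2% of WT reads but 63.1 ± 18.1 of the gene's 182 TPM, since it is short, and much of the spread of DCN in TPM between WT libraries came with it (75.6, 71.4 and 42.4 TPM).

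LUM had 3 annotated transcripts, all with reads. The coding transcript LUM-201 held 74.2% ± 3.48 of LUM reads in WT and 74.6% ± 2.78 in KO (SD, n = 3), and the non-coding LUM-203 and LUM-202 shared the rest. LUM-201 stood at 48.4, 46.2 and 39.5 TPM in WT and 18.5, 19.0 and 19.6 TPM in KO. The KO level was 0.426 of WT for LUM-201, 0.448 for LUM-203 and 0.389 for LUM-202.

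**Figure D2:**
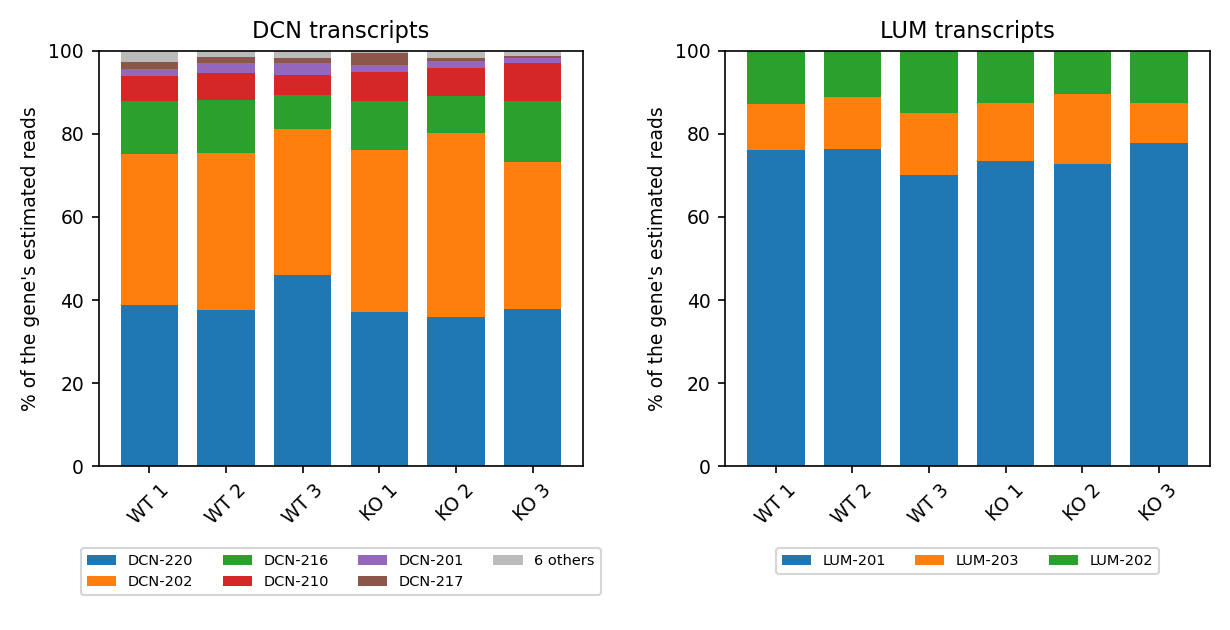
Share of each gene's estimated reads (percent) by annotated transcript in the 3 WT and 3 KO libraries, for DCN (left; 6 minor transcripts pooled in grey) and LUM (right). The bars of both genotypes have nearly the same make-up: DCN-220 and DCN-202 together take most DCN reads and LUM-201 takes 70.2% to 77.8% of LUM reads in every library.

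Promoter sequences were at hand for 6 members, and not for DCN, LUM, OMD or KERA. They are given as the 250 bases before the RefSeq start in GRCh38.p14, and were searched on both strands for the GC box (letters GGGCGG), the TATA box (letters TATAAA), the CCAAT box, the AP-1 motif (letters TGANTCA), the E-box (letters CANNTG) and the SMAD box (letters CAGAC). The PRELP promoter is shown because PRELP is the member whose RNA nearly disappeared. Capitals mark its matches, 1 to the CCAAT box and 1, on the opposite strand, to the SMAD box, which are found in 32.0% and 38.0% of 35116 promoters of that length.
PRELP (plus strand, chr1:203475556-203475805): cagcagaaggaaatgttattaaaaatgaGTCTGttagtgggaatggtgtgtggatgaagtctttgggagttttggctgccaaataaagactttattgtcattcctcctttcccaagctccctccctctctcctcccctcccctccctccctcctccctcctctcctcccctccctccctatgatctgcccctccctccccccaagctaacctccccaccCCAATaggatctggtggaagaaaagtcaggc
It holds no CpG, which is so for 6.06% of promoters. The promoters of BGN and PODN were 74.0% and 72.4% G or C with 16 and 23 CpGs, and that of ASPN was 32.4% G or C with 3. That of FMOD was 51.6% G or C with 9 CpGs, and those of OGN were 36.0% and 31.2% with none. A GC box was present 5 times in BGN, 2 times in PODN and 2 times in FMOD (42.6% of promoters hold one). PRELP, ASPN and OGN had none. A match is a description of the letters and shows no binding.

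The 5 genes whose profile over the 6 libraries lay nearest to that of DCN were MCTP2, SHOX2, ACE, SPON2 and PTPRK. Likeness was the Euclidean distance between log2 CPM values centred on the mean of each gene, with 13056 genes compared and a median distance of 3.60. MCTP2 was at 0.245, with a change of -3.18 ± 0.18, and SHOX2, a homeobox gene, at 0.316 with -2.81 ± 0.09. The peptidase gene ACE (0.325), the matrix protein gene SPON2 (0.503) and the receptor phosphatase gene PTPRK (0.537) changed by -2.94 ± 0.09, -2.55 ± 0.10 and -3.38 ± 0.11. That they were lower in KO follows from how they were picked.

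Genes that make, modify, process or bind these proteins were then compared. Of 72 such genes tested in 6 lists, 18 were higher, 20 lower and 34 not called, beside 26.0% of all genes called, and their median was 0.02 against 0.00 for all genes. Among related leucine-rich matrix genes both tested members fell. PODNL1, the closest relative of PODN, fell from 8.89 ± 1.84 to 3.30 ± 0.540 CPM (SD, n = 3; -1.43 ± 0.20, edgeR adjusted p = 0.000408). TSKU, a secreted BMP and Wnt modulator, fell from 50.0 ± 1.18 to 40.6 ± 0.694 CPM (-0.30 ± 0.07, edgeR adjusted p = 0.0126), and its call was lost without WT replicate 1 or 2 or KO replicate 3 (0.0502 to 0.0761). EPYC and OPTC of the same list had no read.

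Of 20 tested genes for building chondroitin and dermatan sulfate chains, 2 were higher and 4 lower, with a median of -0.03. That share called is near the 26.0% of all genes. The sulfotransferase gene CHST15 rose from 14.8 ± 2.64 to 32.1 ± 3.25 CPM (SD, n = 3; 1.12 ± 0.14, edgeR adjusted p = 0.000165), and B4GALT7, which adds the first galactose of the linker, rose as well (0.67 ± 0.11, adjusted p = 0.000920). The chain polymerising factor gene CHPF (-0.56 ± 0.09, adjusted p = 0.000639) and the dermatan sulfotransferase gene CHST14 (-0.35 ± 0.08, adjusted p = 0.0114) fell. Of 8 genes of keratan sulfate synthesis and tyrosine sulfation, 1 rose and 4 fell, with a median of -0.32. B3GNT7, which extends keratan sulfate, fell from 5.66 ± 0.955 to 1.84 ± 0.172 CPM (-1.61 ± 0.22, adjusted p = 0.000356), and the corneal keratan sulfotransferase gene CHST6 fell (-1.16 ± 0.24, adjusted p = 0.00499), with a call lost on length-corrected counts at nearly the same size (-1.07 ± 0.32, adjusted p = 0.0530). The tyrosine sulfotransferase genes moved apart. TPST1 rose (0.54 ± 0.08, adjusted p = 0.000419) and TPST2 fell (-0.32 ± 0.10, adjusted p = 0.0419), the latter lost in 8 of 15 other settings, with adjusted p up to 0.164.

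The collagens that these proteins bind changed in both directions. Of 12 tested, 5 were higher and 4 lower, with a median of 0.60. COL3A1 rose from 641 ± 20.4 to 1640 ± 29.4 CPM (SD, n = 3; 1.36 ± 0.05, edgeR adjusted p = 4.44e-08). COL5A1 (1.45 ± 0.07, adjusted p = 1.55e-07), COL11A1 (2.44 ± 0.12, adjusted p = 2.14e-07) and COL5A2 (2.77 ± 0.25, adjusted p = 1.63e-05), genes of the minor fibrillar collagens, rose too. The fifth collagen called higher was COL1A1, and those called lower were COL6A1, COL6A2, COL11A2 and COL14A1 (these 5 named after their values were seen).

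Among 14 genes that cleave or crosslink matrix proteins 5 were higher and 3 lower. ADAMTS5, a protease that cleaves proteoglycans, rose from 5.43 ± 0.633 to 59.0 ± 1.61 CPM (SD, n = 3; 3.44 ± 0.11, edgeR adjusted p = 1.25e-08), and HTRA1, a secreted serine protease, rose as well (0.59 ± 0.09, adjusted p = 0.000469). The related ADAMTS4 fell (-0.67 ± 0.08, adjusted p = 0.000146), as did the membrane metalloproteinase gene MMP14 (-0.69 ± 0.07, adjusted p = 3.39e-05). BMP1, whose product removes the propeptide of several family members, was not called (0.16 ± 0.10, adjusted p = 0.296; named after its value was seen).

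Of 16 receptors and growth factors bound by family members 5 were higher, 3 lower and 8 not called. TGFB2, a ligand that decorin and its relatives bind, rose from 1.99 ± 0.0866 to 61.1 ± 10.2 CPM (SD, n = 3; 4.94 ± 0.16, edgeR adjusted p = 1.25e-08). TGFB3 rose (1.02 ± 0.15, adjusted p = 0.000455), with a call lost on length-corrected counts at nearly the same size (0.99 ± 0.37, adjusted p = 0.105). TGFB1, the most abundant of the 3 ligands in WT, fell from 100 ± 2.82 to 74.5 ± 12.2 CPM (-0.43 ± 0.11, adjusted p = 0.0143; named after its value was seen). A further rise was that of the growth factor-binding matrix gene CCN2, from 1, 4 and 4 counts in WT to 30, 35 and 33 in KO (3.34 ± 0.49, adjusted p = 0.000472). The receptor gene IGF1R fell (-0.57 ± 0.07, adjusted p = 0.000129). These genes changed in the same libraries as DCN and LUM, and whether one change bears on another was not tested.

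**Figure D3:**
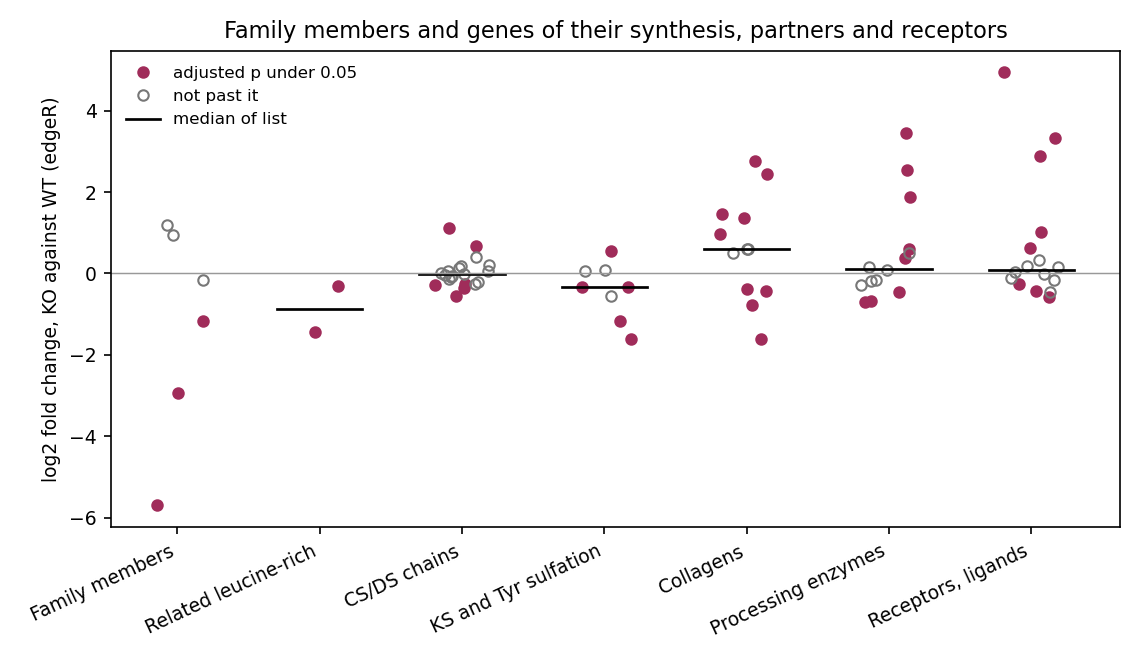
edgeR log2 fold change of KO against WT for the 6 tested family members and for the genes of 6 lists (related leucine-rich proteins; chondroitin and dermatan sulfate chains, CS/DS; keratan sulfate, KS, and tyrosine sulfation; collagens; processing enzymes; receptors and ligands), filled where the adjusted p is under 0.05, with each list's median as a bar. DCN, LUM and PRELP lie at -2.94, -1.17 and -5.70. The medians of the 6 lists, in the order named, are -0.87, -0.03, -0.32, 0.60, 0.12 and 0.10.

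The genes beside the member loci showed no shared direction. DCN, LUM and KERA lie side by side on chromosome 12, FMOD and PRELP on chromosome 1, and OGN, OMD and ASPN on chromosome 9. Of 52 tested genes, the nearest 5 on each side of the 5 loci and 2 that overlap them, 10 were higher and 5 lower, a share called near the 26.0% of all genes, with a median of 0.07. Beside BGN 4 of 11 were higher and none lower (median 0.45), and beside FMOD and PRELP 1 of 10 was higher and 3 lower (median -0.03). Around DCN and LUM 4 of 10 were higher and 1 lower, with a median of 0.73. ATP2B1, a calcium pump gene on one side, rose (1.42 ± 0.14, edgeR adjusted p = 2.64e-05; 0.71 and not called with length-corrected counts, adjusted p = 0.157), and NUDT4 on the other side rose (0.74 ± 0.07, adjusted p = 1.84e-05). The antisense gene ATP2B1-AS1 was higher as well (1.83 ± 0.32, adjusted p = 0.00157; named after its value was seen), and reads of the pair may be mixed. The 10 tested genes beside that locus lay 802.2 to 2195.1 kb away.

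At 434.5 kb from BGN, PNMA3 rose from 0, 1 and 1 counts in WT to 44, 35 and 49 in KO (5.71 ± 0.59, edgeR adjusted p = 4.23e-05). It passed the filter on low counts through the KO libraries alone, and the size of its change is not fixed by these counts. At 140.4 kb from PODN, ECHDC2, a mitochondrial enzyme gene, fell (-1.81 ± 0.22, adjusted p = 0.000147), while PODN itself was at 1.20. CENPP, a centromere protein gene, overlaps OGN, OMD and ASPN on the opposite strand, and HAUS7 overlaps BGN. PODN is overlapped on the opposite strand by the antisense gene AL445183.1 and the pseudogene HIGD1AP11, and 726 of the 4993 stretches of 31 bases in its transcripts also occur on the opposite strand of other genes' transcripts. CENPP and HAUS7 were not called (0.17 ± 0.14, adjusted p = 0.416, and -0.10 ± 0.14, adjusted p = 0.681). The library kit keeps strand, but no strand setting of the counting is given in the sources used here, so reads of these overlapping pairs are uncertain.

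**Figure D4:**
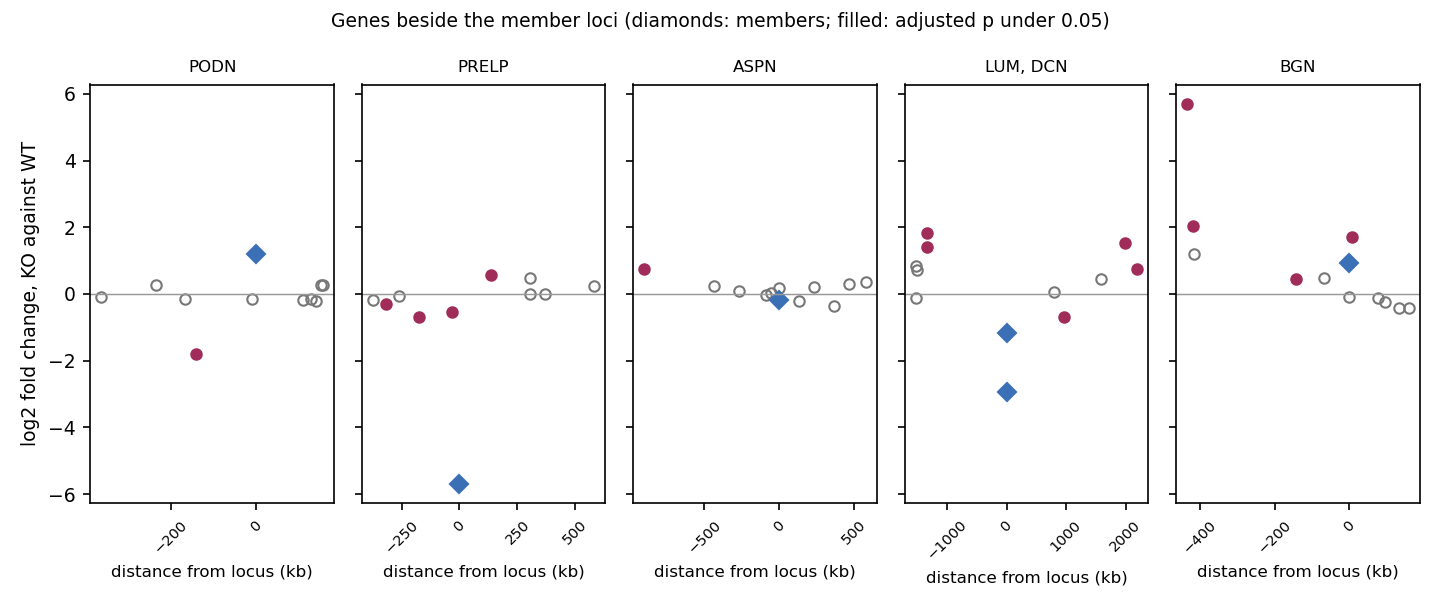
edgeR log2 fold change of KO against WT for genes beside each member locus, by distance from the locus in kb (overlapping genes at 0), filled where the adjusted p is under 0.05, with the tested members as blue diamonds. DCN (-2.94), LUM (-1.17) and PRELP (-5.70) lie below every gene beside their loci.

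Markers were read in the same libraries, and their calls stand beside 14.5% of all genes called higher and 11.5% lower. Of 10 noradrenergic neuroblastoma genes 9 were tested, 3 higher and 4 lower, with PHOX2A at 496 ± 23.0 CPM in WT and 470 ± 5.00 CPM in KO (SD, n = 3), and the list summed to 3760 to 3930 CPM in WT and 3680 to 3760 CPM in KO. DBH, the enzyme that makes noradrenaline, was at 573 ± 59.2 CPM in WT and 356 ± 38.8 CPM in KO (-0.69 ± 0.09, edgeR adjusted p = 0.000312), while TH, the first enzyme of all catecholamine synthesis, had 6 reads over WT and 1 over KO. Of 10 fibroblast and mural cell genes 9 were tested, 4 higher and 2 lower, and their sum was 6380 to 6660 CPM in WT and 5780 to 6930 CPM in KO. RGS5 alone gave 6040 ± 153 CPM of it in WT and 5730 ± 640 CPM in KO, and TCF21 had no read. Those higher in KO were PDGFRA (1.65 ± 0.09), FAP (2.10 ± 0.13), COL1A1 (0.97 ± 0.09) and THY1 (0.47 ± 0.11), and those lower were S100A4 (-0.91 ± 0.17) and CSPG4 (-1.53 ± 0.35). Of 7 Schwann cell genes 4 were tested and 1 was lower, their sum was 7.72 to 9.68 CPM in WT and 7.37 to 8.35 CPM in KO, and SOX10, CDH19 and FOXD3 had no read. The part of other cells in the fall of DCN and LUM was not tested.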

How the data were processed

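The data were 6 RNA-seq libraries of SH-SY5Y cells, 3 WT and 3 KO. The authors deposited a gene table of estimated counts, rounded to whole numbers and not normalized, and transcript files with estimated counts, effective lengths and TPM, per the file headers. Salmon 1.10.0, cutadapt 3.5, FastQC, DESeq2 1.42.1 and GRCh38.p14 are listed, per the submitters' processing notes, without roles. Which annotation was used is not given. The gene counts match summed transcript counts within 1 read for 82.8% to 83.7% of 19584 genes. After 403 repeated rows were removed, 20668 genes remained.

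Genes were filtered with filterByExpr, scaled by TMM and tested with edgeR 4.0.16 (R 4.3.3; quasi-likelihood F-test, two-sided, Benjamini-Hochberg over 16403 genes, threshold 0.05). SEs were derived from the fold change and the F statistic. Transcripts were assigned to genes by GENCODE release 29, which holds 94.2% to 94.6% of reads; positions are from RefSeq, GRCh38.p14. Coding sequences were aligned with mafft 7.526. The fit was tested on simulated data. Named list genes are the called members with the smallest adjusted p, at most 4 a list. Neighbours follow the same rule over all loci. The members and lists were chosen with earlier results of these data known. Replicates of a genotype differed by more than sampling noise (chi-square per gene 4.37 to 22.7). The alternatives were DESeq2 1.42.0, limma-voom 3.58.1, other scalings and filters, a replicate block, counts from the transcript files and each library left out.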

Additional observations from a re-analysis of the deposited data

How the results depend on the processing

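Over 15 other settings the fitted change was -2.99 to -2.90 for DCN and -1.23 to -1.15 for LUM, and -7.54 to -5.06 for PRELP in the 14 settings that fitted it; these refits use the libraries that the family was chosen on and add no support. ASPN, at -0.17, ranged from -0.70 to 0.10 with 1 library left out, and changed sign without KO replicate 2 (0.10). PODN ranged from 0.80 to 1.62 and was called by limma-voom alone. Of 31 other named genes, 26 kept direction and call in every setting. The number of genes called over the whole table was 4270, and 2830 when the transcript files gave length-corrected counts (the cause was not tested). It was 2966 to 4772 with 1 library left out, with 28 to 38 partner-list genes and 13 to 16 neighbour genes. Scaled by library size without TMM, 2055 genes were called higher and 2438 lower, against 2383 and 1887. With the replicate number as a block 4565 genes, 38 partner-list genes and 17 neighbour genes were called. The labels do not say that the numbers pair the libraries, and deviations of same-numbered libraries correlated by 0.06, -0.03 and -0.07. Depth limits BGN, ASPN, PODN and PRELP, which had 0 to 42 counts a library.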

Other observations

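The calcium pump genes beside 3 of the member loci belong to 1 family of plasma membrane calcium ATPases, and were looked at together after their values had been seen. ATP2B1, 1341.1 kb from the locus of DCN and LUM, rose from 31.6 ± 2.72 to 84.8 ± 17.7 CPM (SD, n = 3; 1.42 ± 0.14). ATP2B3, 8.1 kb from BGN, rose from 2.47 ± 0.633 to 8.16 ± 1.62 CPM (1.72 ± 0.23, edgeR adjusted p = 0.000307). ATP2B4, 135.5 kb from the locus of FMOD and PRELP, rose from 143 ± 18.2 to 214 ± 15.0 CPM (0.58 ± 0.10, edgeR adjusted p = 0.00111). ATP2B2, which lies beside none of the members, rose from 6, 2 and 8 counts to 71, 83 and 67 (3.71 ± 0.41, adjusted p = 6.90e-05). ATP2B2, ATP2B3 and ATP2B4 were called in all 16 settings and ATP2B1 in 15, the exception being length-corrected counts. The members beside them were lower (DCN, LUM, PRELP) or not called (BGN).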
